A study of Homo sapiens with 6 samples.

Results

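Messenger RNA levels of 10 genes that act just below the thrombin receptor PAR1 were followed in 8505C cells after silencing of POLR1F. The genes were taken by name from the deposited gene table. They are the G protein alpha subunit genes GNAQ, GNA11, GNA12, GNA13, GNAI2 and GNAI3, the RhoGEF (guanine nucleotide exchange factor) genes ARHGEF1, ARHGEF11 and ARHGEF12, and PLCB3, which encodes a phospholipase C beta. All 10 were present, with 1 row each, among 33539 genes in the table, and all 10 were among the 13564 genes tested. 8505C cells are a long-standing culture of undifferentiated (anaplastic) thyroid carcinoma. Cells were treated for 24 h with an siRNA against POLR1F, a subunit of RNA polymerase I (siPOLR1F, 3 libraries), or with a negative control siRNA (NC, 3 libraries). Both groups grew in RPMI-1640 with 10% fetal bovine serum, and the labels hold no siRNA sequence. With these groups, an effect of POLR1F silencing cannot be told apart from other effects of either siRNA, which were not tested. Each group is the same single cell line, and the labels do not say whether its libraries came from separate cultures, so p-values cover the variation among these libraries alone, and part of it may be technical.

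PAR1, the product of F2R, is a receptor that thrombin switches on by cutting its outer end. The cut receptor makes heterotrimeric G proteins release GDP and bind GTP, and it can use several families of them. The q family (GNAQ and GNA11) activates phospholipase C beta, which makes the messengers that release calcium and activate protein kinase C. The 12/13 family (GNA12 and GNA13) acts on 3 exchange factors that carry an RGS-like domain and load RhoA with GTP, which drives actin fibre formation and contraction. The inhibitory family (GNAI2 and GNAI3) lowers adenylyl cyclase activity and frees beta-gamma dimers that act on other effectors.

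GNA11, GNA12 and ARHGEF1 rose in siPOLR1F cells, and the other 7 genes did not pass the test. GNA11 was 1.39 times, GNA12 1.30 times and ARHGEF1 1.16 times the NC level. Calls were made on counts by the edgeR quasi-likelihood test at a Benjamini-Hochberg adjusted p below 0.05 over all 13564 genes, as for each call that follows unless another tool is named. By that rule 3 of 10 members were higher, against 10.3% of all tested genes, and 0 of 10 were lower, against 6.94%. DESeq2 and limma on log2(FPKM + 1) also called 0 members lower, and 1 member, GNAI3, was lower at an unadjusted p below 0.05. The median log2 fold change was 0.08 over the 10 members and -0.01 over all tested genes. FPKM corrects a count for the length of the gene and the depth of the library. It did not overlap between the groups for 3 higher and 2 lower members, against 18.9% and 19.0% of all tested genes, 37.9% in either direction. In bulk RNA of this kind, a change in the number of cells that express a gene and a change in RNA per cell cannot be told apart.

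**Figure D1:**
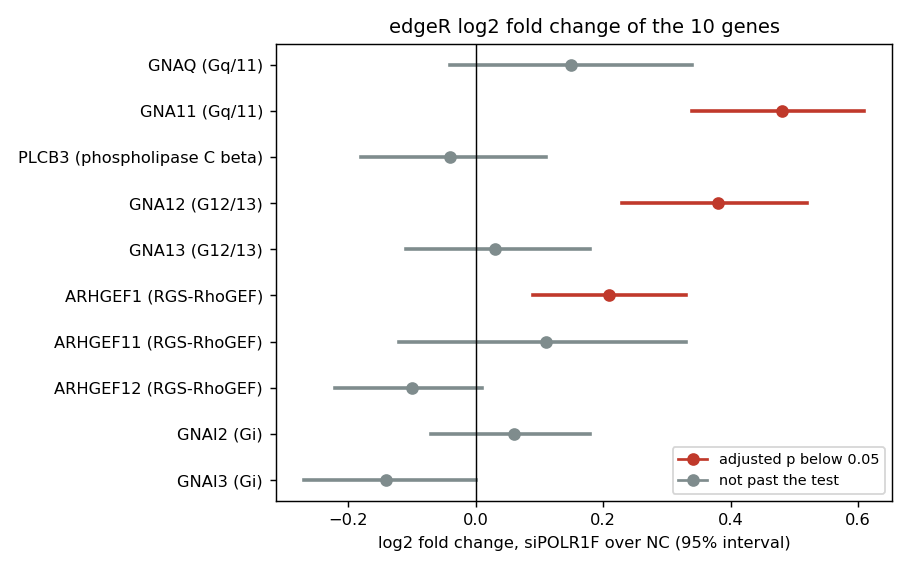
Log2 fold change of siPOLR1F over NC for the 10 genes (points, x axis) with 95% intervals (lines), from the edgeR fit on 3 libraries per group. The intervals of GNA11 (0.34 to 0.61), GNA12 (0.23 to 0.52) and ARHGEF1 (0.09 to 0.33) lie above 0, and GNAI3 reaches -0.00 at its upper end.

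The heptamer TCGGAGA occurs in the coding sequence or 3′ untranslated region of 3 members, GNA11, ARHGEF1 and PLCB3. It was taken up because an earlier scan of these same fold changes had ranked it high for a rise, so its share among higher genes partly reflects how it was picked and is no independent test. It was searched on the sense strand of 1 transcript per gene, the one with the longest 3′ untranslated region in GENCODE 29. The 3 sites are shown with their flanks, read 5′ to 3′ with the heptamer in capitals. All lie inside the gene bounds of the deposited table, in GRCh38 on the plus strand.
GNA11, exon 7, 3′ untranslated region, chr19:3121678-3121706: ggcgtggagacTCGGAGAcggacgttttt
ARHGEF1, exon 16, coding sequence, chr19:41902323-41902351: catcgaggagaTCGGAGAcgtgctgctgg
PLCB3, exon 31, coding sequence, chr11:64267513-64267541: cgggcgctgacTCGGAGAgccaggaggag
GNA11 and ARHGEF1 were higher in siPOLR1F cells, whereas PLCB3 did not pass the test and GNA12, which was higher, holds no copy. Of all 11127 genes searched, 9.54% hold the heptamer in either region, as do 21.9% of the higher and 5.03% of the lower genes. A second heptamer from that scan, CCGACTT, which had ranked first for a fall, occurs in the 3′ untranslated region of GNAI2 and of GNAI3. Neither of these 2 genes passed the test, and both GNAI3 copies lie beyond the gene end given in the deposited table. In either region, CCGACTT occurs in 6.50% of all genes searched, 5.82% of the higher and 13.5% of the lower genes. Its shares, too, partly reflect how it was picked. The part of such sites in the fold changes was not tested.

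The deposited counts summed to between 61712891 and 63038378 in the siPOLR1F libraries and between 60576788 and 62671647 in the NC libraries. The targeted gene POLR1F was at 2.09, 1.42 and 1.51 FPKM in siPOLR1F and 8.80, 8.42 and 7.64 FPKM in NC (log2 fold change -2.30, adjusted p = 9.76e-05). The thyroid factor NKX2-1 was lower, with 27.5 FPKM in siPOLR1F and 45.2 FPKM in NC (edgeR adjusted p = 0.000435). HHEX (4.38 and 4.88 FPKM) and PAX8 (0.491 and 0.543 FPKM), also thyroid factors, did not pass. The thyroid hormone precursor gene TG, at 0.00395 and 0.00257 FPKM, was not tested. VIM, an intermediate filament of mesenchymal cells, averaged 674 FPKM in siPOLR1F and 671 in NC. The fibronectin gene FN1 fell to 38.3 FPKM in siPOLR1F, against 52.2 in NC (adjusted p = 0.0126). The epithelial keratin gene KRT8 fell to 98.0 FPKM, against 117 (adjusted p = 0.0197). KRT18 (146 and 162 FPKM) and CDH2 (14.4 and 13.4 FPKM) did not pass. The epithelial genes EPCAM (0.638 and 0.762 FPKM, not passed) and CDH1 (0.0356 and 0.0285 FPKM, not tested) were low in both groups. The summed FPKM of 4 leukocyte and endothelial markers was 3.78 to 5.99 in siPOLR1F and 7.22 to 7.78 in NC. PTPRC was near 0 in both groups. Most of the sum was CDH5, which was lower in siPOLR1F (log2 fold change -1.04, edgeR adjusted p = 0.00308). The part of this sum in the results was not tested. Mitochondrial genes took 4.32% to 4.85% of counts in siPOLR1F and 4.93% to 5.15% in NC, and the part of this difference was not tested either.

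In the q family, GNA11 rose and GNAQ did not pass the test. GNA11 (ENSG00000088256, GRCh38 chromosome 19, 3094362 to 3123999, plus strand) had 13.8, 14.8 and 15.5 FPKM in siPOLR1F and 10.4, 10.9 and 10.5 FPKM in NC. Each siPOLR1F library lay above each NC library. The counts behind these levels were 5996, 6538 and 6737 in siPOLR1F and 4597, 4614 and 4587 in NC, and the log2 fold change was 0.48 (SE 0.06; adjusted p = 0.00150). It passed under each of 14 alternatives, with adjusted p-values from 4.09e-10 to 0.0117. GNAQ (ENSG00000156052, chromosome 9, 77716097 to 78031811, minus strand) encodes the other alpha subunit of the family. It had 11.1, 9.82 and 10.1 FPKM in siPOLR1F and 10.3, 8.72 and 9.12 FPKM in NC, and the groups overlapped. Its log2 fold change of 0.15 had a 95% interval of -0.04 to 0.34 (adjusted p = 0.255), which reaches the lower bound of GNA11 at 0.34.

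GNA11 made up 58.6% ± 2.85 of the summed GNAQ and GNA11 FPKM in siPOLR1F and 53.0% ± 2.72 in NC (SD, n = 3 each). These shares overlapped between the groups (exact two-sided permutation p = 0.2, where 3 against 3 libraries cannot go below 0.1). The rise of GNA11 is therefore not shown to differ from the value of GNAQ. The sum of both genes was 25.0 ± 0.508 FPKM in siPOLR1F and 20.0 ± 0.639 in NC (SD, n = 3 each), without overlap (exact permutation p = 0.1). PLCB3 (ENSG00000149782, chromosome 11, 64251530 to 64269150, plus strand), the effector of this family, had 18.6, 20.5 and 19.2 FPKM in siPOLR1F and 19.9, 18.9 and 21.2 FPKM in NC. The groups were interleaved, and the log2 fold change of -0.04 had an interval of -0.18 to 0.11 (adjusted p = 0.742). Without NC replicate 3 its sign turned, at 0.01.

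**Figure D2:**
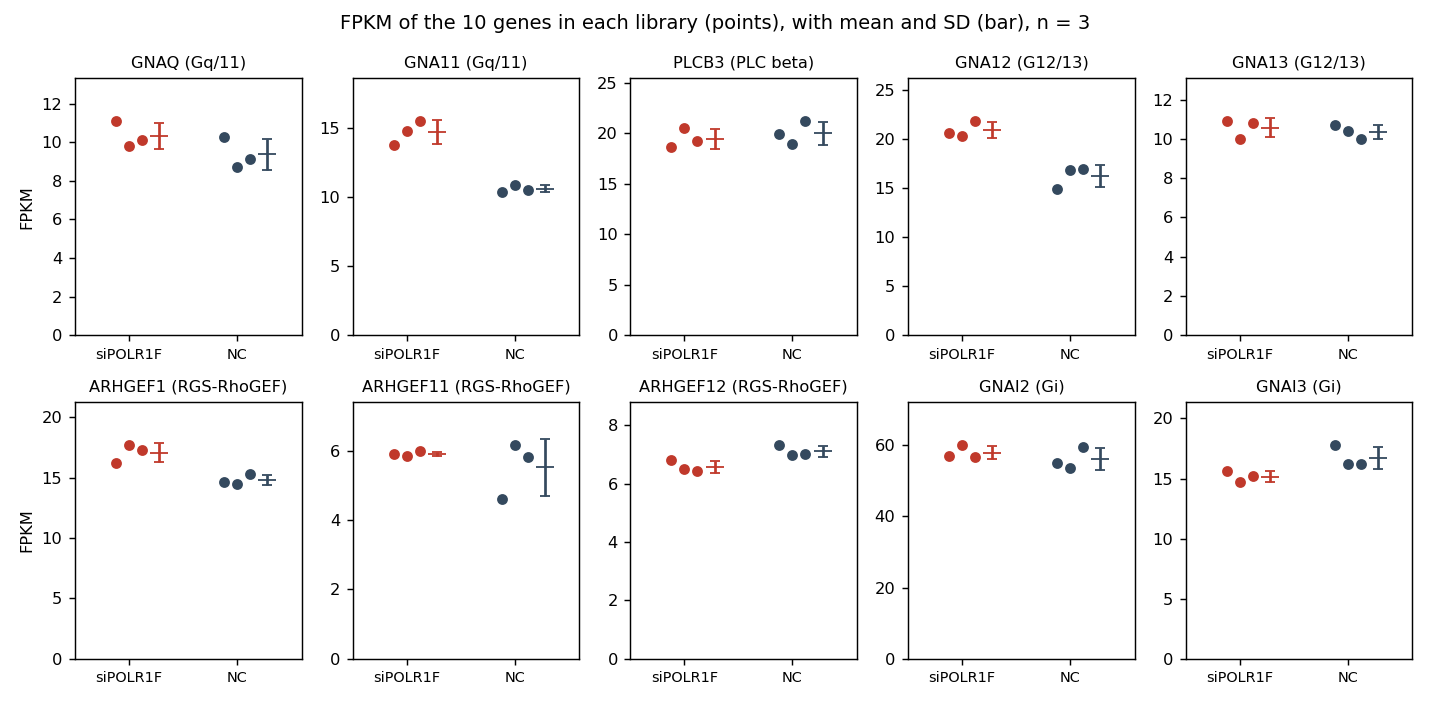
FPKM (y axis, from 0, with a scale of its own in each panel) of the 10 genes in each siPOLR1F and NC library (points), beside the mean and SD of 3 libraries. GNA11, GNA12 and ARHGEF1 have all siPOLR1F points above all NC points, ARHGEF12 and GNAI3 have them all below, and NC replicate 1 sits low for ARHGEF11 at 4.60 FPKM.

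In the 12/13 family, GNA12 rose and GNA13 stayed within the spread of its libraries. GNA12 (ENSG00000146535, chromosome 7, 2728105 to 2844308, minus strand) had 20.6, 20.3 and 21.8 FPKM in siPOLR1F and 14.9, 16.8 and 16.9 FPKM in NC. The groups did not overlap, and NC replicate 1 was the lowest library. The log2 fold change was 0.38 (SE 0.06; adjusted p = 0.00666), and it was 0.32 without NC replicate 1 (adjusted p = 0.00991). Over 14 alternatives the adjusted p ran from 5.27e-06 to 0.0391. GNA13 (ENSG00000120063, chromosome 17, 65009289 to 65056740, minus strand), which couples to the same exchange factors, had 10.9, 10.0 and 10.8 FPKM in siPOLR1F and 10.7, 10.4 and 10.0 FPKM in NC. Its log2 fold change was 0.03, with an interval of -0.11 to 0.18 that ends below the interval of GNA12 at 0.23 (adjusted p = 0.748).

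GNA12 made up 66.4% ± 0.887 of the summed GNA12 and GNA13 FPKM in siPOLR1F and 60.9% ± 2.40 in NC (SD, n = 3 each). The shares were 65.4%, 66.9% and 66.9% in siPOLR1F and 58.2%, 61.8% and 62.7% in NC, so that each siPOLR1F library exceeded each NC library (exact permutation p = 0.1, the smallest possible). The log2 ratio of GNA12 to GNA13 was 0.98 ± 0.06 in siPOLR1F and 0.64 ± 0.15 in NC (SD, n = 3 each), and the sum of both genes was 31.5 ± 1.16 and 26.6 ± 0.888 FPKM.

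Of the RhoGEF genes below the 12/13 family, ARHGEF1 rose slightly and the other 2 did not pass the test. ARHGEF1 (ENSG00000076928, chromosome 19, 41883173 to 41930150, plus strand) encodes p115-RhoGEF, which also speeds GTP hydrolysis by the alpha subunits that activate it. It had 16.2, 17.7 and 17.3 FPKM in siPOLR1F and 14.6, 14.5 and 15.3 FPKM in NC, without overlap (log2 fold change 0.21, SE 0.05; adjusted p = 0.0293). The call was lost without siPOLR1F replicate 2 (adjusted p = 0.105) or 3 (0.101), without NC replicate 1 (0.0549), 2 (0.0642) or 3 (0.0528), with limma on log2(FPKM + 1) (0.0523), and with no filter on low genes (0.0804). Its log2 fold change stayed between 0.19 and 0.24 under all 14 alternatives, and its adjusted p lay between 0.00510 and 0.105.

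ARHGEF12 (ENSG00000196914, chromosome 11, 120336413 to 120489937, plus strand) encodes LARG. It had 6.81, 6.50 and 6.43 FPKM in siPOLR1F and 7.33, 6.97 and 7.03 FPKM in NC. All siPOLR1F libraries were below all NC libraries, but the log2 fold change of -0.10 did not pass (interval -0.22 to 0.01; adjusted p = 0.203). ARHGEF11 (ENSG00000132694, chromosome 1, 156934840 to 157045742, minus strand) encodes PDZ-RhoGEF. Its levels were 5.90, 5.86 and 5.98 FPKM in siPOLR1F and 4.60, 6.17 and 5.81 FPKM in NC, and the log2 fold change was 0.11 (interval -0.12 to 0.33; adjusted p = 0.503). That value rested on NC replicate 1, without which it was -0.01. ARHGEF1 made up 57.7% ± 1.52 of the summed FPKM of the 3 exchange factors in siPOLR1F and 53.9% ± 1.30 in NC, and ARHGEF12 22.3% ± 1.14 and 26.0% ± 1.48 (SD, n = 3 each). Neither share overlapped between the groups (exact permutation p = 0.1 for each).

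Neither inhibitory subunit gene passed the test. GNAI2 (ENSG00000114353, chromosome 3, 50226292 to 50259354, plus strand) had the highest FPKM of the 10 genes in both groups, with 56.9, 60.0 and 56.7 FPKM in siPOLR1F and 55.0, 53.5 and 59.4 in NC. The groups overlapped, and the log2 fold change was 0.06 (interval -0.07 to 0.18; adjusted p = 0.508). GNAI3 (ENSG00000065135, chromosome 1, 109548615 to 109600195, plus strand) had 15.6, 14.7 and 15.2 FPKM in siPOLR1F and 17.8, 16.2 and 16.2 FPKM in NC. Its siPOLR1F libraries were all below its NC libraries, with a log2 fold change of -0.14 (unadjusted p = 0.0479, adjusted p = 0.148, edgeR). The summed FPKM of both genes was 73.0 ± 1.49 in siPOLR1F and 72.7 ± 3.00 in NC (SD, n = 3 each; exact permutation p = 1). The inhibitory pair made up 56.4% ± 1.20 of the summed FPKM of all 6 alpha subunit genes in siPOLR1F and 61.0% ± 1.07 in NC, without overlap (exact permutation p = 0.1). The q pair made up 19.3% ± 0.340 and 16.8% ± 0.664, also without overlap (exact permutation p = 0.1). Over the 21 sums, shares and ratios compared, some of which mirror each other, the smallest adjusted permutation p was 0.175. With 3 against 3 libraries the unadjusted permutation p cannot go below 0.1, so none could pass the threshold whatever the data.

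**Figure D3:**
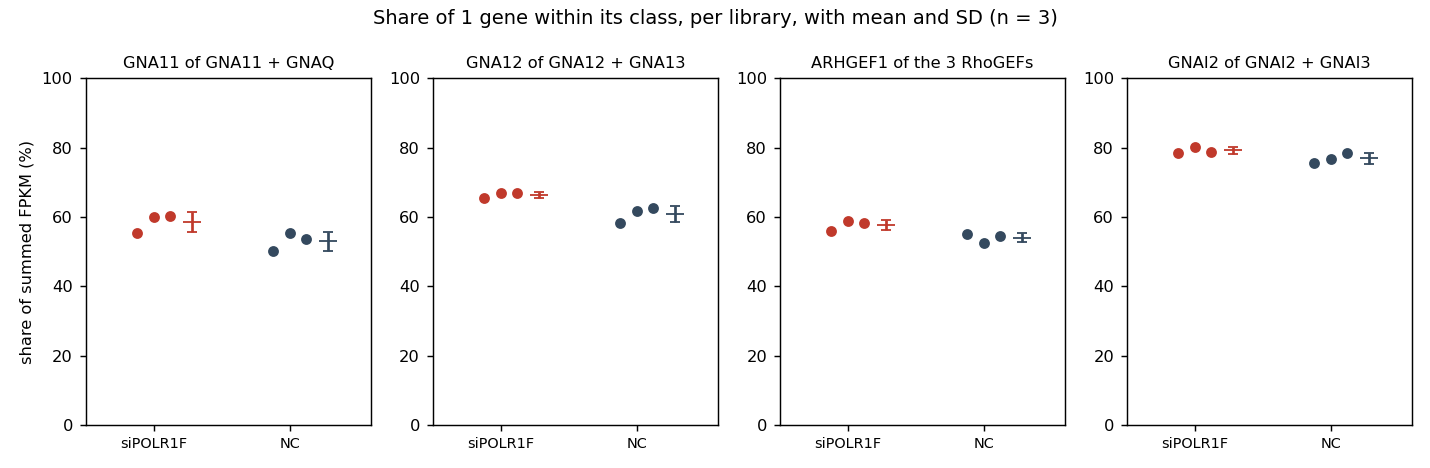
Share (percent of summed FPKM, y axis from 0 to 100) of GNA11, GNA12, ARHGEF1 and GNAI2 within their classes in each library (points), beside the mean and SD of 3 libraries. The GNA12 and ARHGEF1 shares are higher in all siPOLR1F than in all NC libraries, and the GNA11 and GNAI2 shares overlap.

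Ranked by mean FPKM, the order in siPOLR1F cells was GNAI2, GNA12, PLCB3, ARHGEF1, GNAI3, GNA11, GNA13, GNAQ, ARHGEF12 and ARHGEF11. In NC cells it was GNAI2, PLCB3, GNAI3, GNA12, ARHGEF1, GNA11, GNA13, GNAQ, ARHGEF12 and ARHGEF11. Neighbours whose libraries overlapped in siPOLR1F were GNA12 and PLCB3, GNAI3 and GNA11, and GNA13 and GNAQ. In NC they were GNAI3 and GNA12, GNA12 and ARHGEF1, GNA11 and GNA13, and GNA13 and GNAQ. The mean over all 6 libraries ran from 5.72 FPKM for ARHGEF11 to 56.9 FPKM for GNAI2, so that all 10 genes were above the median of the tested genes. Paralogs can share reads where their sequence is alike. The coding sequences of GNAQ and GNA11 matched at 78.9% of aligned bases, those of GNA12 and GNA13 at 68.7% and those of GNAI2 and GNAI3 at 74.6%, and no stretch of 50 identical bases was shared within a pair (0 in each). A processed copy of GNAQ, GNAQP1, averaged 0 counts, rounded, and the genes that overlap GNA12 and ARHGEF1 on the opposite strand, AMZ1 and ERFL, averaged 32 and 26 counts.

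GNA11 had the smallest adjusted p of the 10 genes. Among 6562 tested genes with a mean of at least 5 FPKM, the log2 CPM (counts scaled to library size) most correlated with it over the 6 libraries were those of IGF2R (Pearson r = 0.9988), PTPA (0.9979) and KIF1C (0.9979). These points share libraries and the difference between 2 groups, and the values are a description. IGF2R, which encodes the receptor for mannose 6-phosphate and insulin-like growth factor II, averaged 13.1 ± 0.557 FPKM in siPOLR1F and 10.3 ± 0.224 in NC (SD, n = 3 each). PTPA, an activator of protein phosphatase 2A, averaged 32.8 ± 0.873 and 28.6 ± 0.569 FPKM, and the kinesin gene KIF1C 28.5 ± 1.42 and 18.8 ± 0.482 FPKM. IGF2R and KIF1C hold the heptamer TCGGAGA in their coding sequence, and PTPA holds no copy. The heptamer was picked from these same fold changes, so this too is a description.

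The surrounding pathway was read from 12 lists of other genes. Of 159 listed genes 119 were tested, of which 11 rose, 15 fell and 93 did not pass. That is 21.8% called, against 17.2% of all tested genes. By direction, 10.3% of all tested genes were higher and 6.94% lower, and the counts of each list below stand beside these shares. When siPOLR1F replicate 1 was left out 4 rose and 8 fell, when siPOLR1F replicate 2 was left out 6 rose and 9 fell, when siPOLR1F replicate 3 was left out 3 rose and 11 fell, and when NC replicate 3 was left out 5 rose and 11 fell. Beside each count of 0 from edgeR, the count at an unadjusted p below 0.05 is given with the counts from DESeq2 and from limma on log2(FPKM + 1).

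Receptors that use these G proteins included several that fell. Of 3 protease-activated receptor genes tested, 2 fell and 0 rose (0 unadjusted, 0 in DESeq2, 0 in limma), with a list median of -0.62. F2R had 3.21, 4.81 and 3.69 FPKM in siPOLR1F and 9.40, 7.55 and 9.63 FPKM in NC (log2 fold change -1.18, adjusted p = 0.00181). F2RL2, which encodes PAR3, fell by 0.62 on the log2 scale (adjusted p = 0.0189). Of 8 receptor genes for lysophosphatidic acid and sphingosine 1-phosphate, lipids that also signal through these families, 2 fell and 0 rose (1 unadjusted, 0 in DESeq2, 0 in limma; median 0.04). LPAR5 had 0.867, 0.868 and 0.694 FPKM in siPOLR1F and 1.34, 1.50 and 1.65 FPKM in NC. Its counts were few, 134 to 171 in siPOLR1F and 263 to 319 in NC. LPAR1 averaged 10.0 ± 0.369 FPKM in siPOLR1F and 12.5 ± 0.645 in NC (SD, n = 3 each). F2RL2 did not pass without siPOLR1F replicate 1 or 2 or NC replicate 3 (adjusted p from 0.0524 to 0.0632), nor LPAR1 without siPOLR1F replicate 1 or 2 (0.0507 to 0.0692; edgeR).

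Of 13 beta and gamma subunit genes 3 fell and 0 rose (0 unadjusted, 0 in DESeq2, 0 in limma; median -0.18). GNG10 averaged 48.1 ± 2.93 FPKM in siPOLR1F and 62.8 ± 2.93 in NC, and GNG5 10.4 ± 0.381 and 12.9 ± 0.141 FPKM (SD, n = 3 each). GNG2 fell by 0.86 on the log2 scale from few counts, 226 to 328 in siPOLR1F and 379 to 553 in NC. GNG10 shares its exons with the readthrough locus DNAJC25-GNG10, so its counts are uncertain. Of 9 RGS genes, whose products speed GTP hydrolysis by alpha subunits, 2 rose and 0 fell (1 unadjusted, and RGS10 in both DESeq2 and limma, named after its value was known; median 0.16). RGS19, which acts on inhibitory subunits, had 3.40, 3.41 and 4.02 FPKM in siPOLR1F and 1.50, 1.48 and 1.77 FPKM in NC, 2.28 times the NC level (adjusted p = 0.00154). RGS20 averaged 1.81 ± 0.126 FPKM in siPOLR1F and 1.25 ± 0.0172 in NC (adjusted p = 0.0282, edgeR, n = 3 each). These values also came from few counts. RGS19 had 480 to 566 in siPOLR1F and 206 to 251 in NC, and RGS20 378 to 422 and 269 to 287. GNG2 did not pass without siPOLR1F replicate 1 or 3 or NC replicate 1 or 3 (0.0587 to 0.0771), nor RGS20 without siPOLR1F replicate 1 or 3 or any 1 NC library (0.0601 to 0.0908).

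Of 4 other alpha subunit genes tested, GNAI1, the third inhibitory subunit gene, fell to 1.26 ± 0.0560 FPKM in siPOLR1F, against 1.54 ± 0.0860 in NC (SD, n = 3 each; median of the list -0.08). By edgeR 0 of these genes rose (1 unadjusted, 0 in DESeq2, 0 in limma). GNAI1 did not pass in limma on log2(FPKM + 1) (adjusted p = 0.126), which called 0 of the list in either direction. Of 7 genes for receptor kinases and arrestins, which end receptor signalling, 2 fell and 0 rose (0 unadjusted, 0 in DESeq2, 0 in limma; median 0.03). GRK2 averaged 9.63 ± 0.225 FPKM in siPOLR1F and 12.1 ± 0.762 in NC, and GRK5 2.71 ± 0.217 and 3.42 ± 0.0692 FPKM (SD, n = 3 each). Of 6 chaperone and modulator genes 0 passed in edgeR, DESeq2 or limma, with 1 higher and 1 lower at an unadjusted p below 0.05 (median -0.18). RIC8A, a chaperone of alpha subunits, averaged 27.6 ± 1.17 FPKM in siPOLR1F and 24.8 ± 1.36 in NC, and GPSM1, which holds inhibitory subunits in the GDP form, 8.10 ± 0.676 and 8.13 ± 0.541 FPKM (SD, n = 3 each). GNAI1 did not pass without any 1 siPOLR1F library or NC replicate 1 or 2 (edgeR adjusted p from 0.0656 to 0.119), nor GRK5 without siPOLR1F replicate 1 or 2 or NC replicate 2 or 3 (0.0533 to 0.0812).

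Below the q and inhibitory families, 7.69% of the tested phospholipase C beta, calcium and kinase genes and 25% of the tested adenylyl cyclase genes were called. The share over all tested genes was 17.2%. Of 13 genes for other phospholipase C beta enzymes, inositol trisphosphate receptors and protein kinases C and D, 1 fell and 0 rose (2 unadjusted, ITPR3 in DESeq2, 0 in limma; median -0.10). PRKCA, a kinase activated by calcium and diacylglycerol, had 14.3, 16.5 and 15.8 FPKM in siPOLR1F and 20.0, 18.6 and 19.0 FPKM in NC (log2 fold change -0.30, adjusted p = 0.0146). Of 4 adenylyl cyclase genes tested 1 rose and 0 fell (0 unadjusted, 0 in DESeq2, 0 in limma; median 0.10). ADCY3 averaged 15.5 ± 1.11 FPKM in siPOLR1F and 12.8 ± 0.646 in NC, but did not pass without siPOLR1F replicate 1 or 3 or NC replicate 1 (edgeR adjusted p from 0.0577 to 0.0934), and it overlaps CENPO on the opposite strand.

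Of 17 other RhoGEF genes 5 rose and 0 fell (2 unadjusted, ARHGEF25 in DESeq2, 0 in limma; median 0.10). Limma on log2(FPKM + 1) called 3 higher. By edgeR 2 were higher without siPOLR1F replicate 1 or without NC replicate 3, 1 was higher and 1 lower without siPOLR1F replicate 2, and 1 was higher without siPOLR1F replicate 3. AKAP13, an anchoring protein with RhoA exchange activity, had 3.68, 3.41 and 3.24 FPKM in siPOLR1F and 2.55, 2.64 and 2.67 FPKM in NC (log2 fold change 0.40, adjusted p = 0.00584). VAV2 averaged 16.4 ± 0.428 FPKM in siPOLR1F and 13.2 ± 1.12 in NC, and ARHGEF3 1.78 ± 0.0472 and 1.32 ± 0.0327 FPKM (SD, n = 3 each). TRIO, which is activated by the q family, averaged 27.5 ± 1.02 and 22.9 ± 2.41 FPKM. VAV2 did not pass without siPOLR1F replicate 2 or 3 or NC replicate 3 (edgeR adjusted p from 0.0505 to 0.0540), ARHGEF3 without any 1 siPOLR1F library (0.0518 to 0.0736), or TRIO without any 1 siPOLR1F library or NC replicate 1 or 3 (0.0716 to 0.120), nor did TRIO in limma (0.0645). The fifth, ARHGEF28, named with its value known, averaged 5.47 FPKM in siPOLR1F and 4.56 in NC (edgeR adjusted p = 0.0464). It did not pass without any 1 siPOLR1F library or NC replicate 2 or 3 (0.0636 to 0.142), or in limma (0.0795).

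Of 20 genes for RhoA and its effectors 3 fell and 0 rose (3 unadjusted, RHOB in DESeq2, 0 in limma; median -0.09). DIAPH1, a formin that builds actin filaments when bound by RhoA, had 18.9, 20.0 and 20.7 FPKM in siPOLR1F and 26.3, 28.9 and 27.7 FPKM in NC (log2 fold change -0.47, adjusted p = 0.00129). The myosin light chain genes MYL12A and MYL12B also fell, each by 0.18. They are close paralogs, and the sequence they share was not measured, so their counts are uncertain. Both lost the call without any 1 siPOLR1F library or NC replicate 1 or 3 (edgeR adjusted p from 0.0857 to 0.150). Neither passed in limma on log2(FPKM + 1) (adjusted p = 0.0514 for MYL12A and 0.0548 for MYL12B), which called 1 gene of the list lower, DIAPH1. RHOA itself, picked with its value known, was at 123 FPKM in siPOLR1F and 127 in NC (adjusted p = 0.506).

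Of 15 tested genes for SRF, its MRTF cofactors and their targets, which respond to RhoA-driven actin assembly, 3 rose and 1 fell (median 0.01). MYH9, a non-muscle myosin heavy chain, averaged 73.0 ± 1.89 FPKM in siPOLR1F and 62.5 ± 0.985 in NC, FHL2 13.9 ± 0.235 and 11.9 ± 0.179, and the cofactor MRTFA 3.19 ± 0.0755 and 2.52 ± 0.173 FPKM (SD, n = 3 each). VCL, which encodes the adhesion protein vinculin, fell to 25.9 ± 0.942 FPKM in siPOLR1F, against 30.4 ± 0.704 in NC, and it overlaps AP3M1 on the opposite strand. FHL2 did not pass without siPOLR1F replicate 1 or 3 or NC replicate 3 (edgeR adjusted p from 0.0522 to 0.0722), MRTFA without any 1 siPOLR1F library or NC replicate 3 (0.0618 to 0.0695), or VCL without siPOLR1F replicate 1 or 2 (0.0585 for both).

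**Figure D4:**
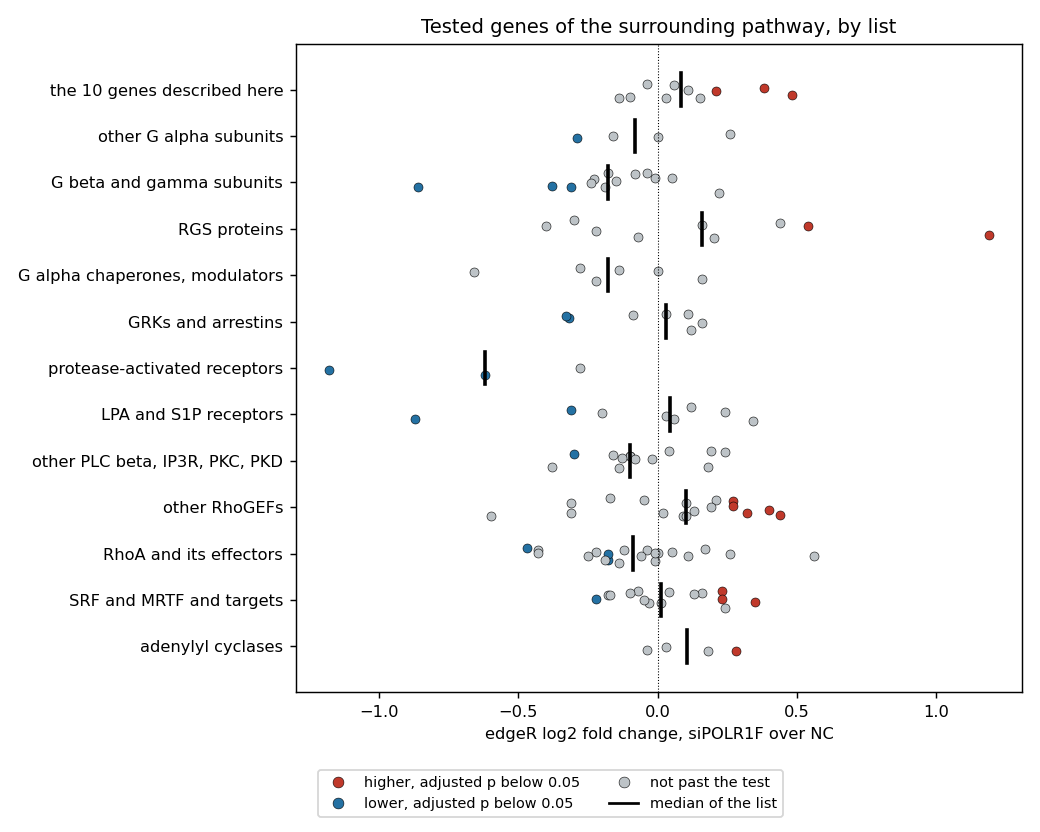
Log2 fold change of siPOLR1F over NC (x axis) of each tested gene in 12 lists around the 10 genes (rows, below a top row for the 10 genes themselves), coloured by the edgeR call, with the list median as a vertical bar. RGS19 (1.19) is the highest point and F2R (-1.18) the lowest, and the 5 called RhoGEF genes outside the 10 all lie to the right of 0.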

How the data were processed

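Poly(A) RNA from 1 µg of total RNA was sequenced as paired reads of 150 bases, per the labels' protocols. The submitters' processing notes name HISAT2, StringTie, fastp and the build GRCh38. Tool versions, annotation, strand setting and the treatment of multiply mapped reads were not given in the sources used here. The authors deposited whole-number counts and FPKM for 33539 genes. In 11428 genes above 200 counts per library, the deposited FPKM tracked the counts to within 2.10%. Depth was 60576788 to 63038378 counts per library, and members had 3025 to 31229 counts each. No 2 libraries of a group were within sampling noise (chi-square per degree of freedom 16.6 to 32.8).

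Counts were tested with edgeR 4.0.16 in R 4.3.3 (TMM, glmQLFit, glmQLFTest, two-sided) in the 13564 genes whose FPKM averaged 0.5 or more; these held 99.4% of the counts. P-values were adjusted by Benjamini-Hochberg over all of them. SEs were derived from each log2 fold change and its F statistic. The script was tested on simulated data. Sums, shares and ratios of FPKM were compared by exact permutation tests (scipy 1.17.1). Alternatives were DESeq2 1.42.0, limma 3.58.1 on log2(FPKM + 1) and log2(FPKM + 0.1), other scalings and filters, a block for the replicate number, and the fit without each library in turn. The 10 members and the 12 lists were chosen with earlier results of these data known. The text names at most 4 called genes of each list, by smallest adjusted p, and the 2 of highest FPKM in a list with no call. Transcript sequences came from GENCODE 29. The search covered 11127 of the 13564 tested genes, those with a complete coding transcript whose 3′ untranslated region reached a set minimum length. For each of them, the transcript with the longest such region was searched.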

Additional observations from a re-analysis of the deposited data

How the results depend on the processing

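GNA11 and GNA12 passed the test under all 14 alternatives, and no alternative called a member lower; 2 or 3 members were called higher. With no filter on low genes 663 genes were higher and 313 lower, and 5 and 6 of the listed pathway genes. With the filter raised to 5 FPKM, 7 pathway genes were higher. Leaving out 1 library gave 730 to 1326 higher and 423 to 841 lower genes, 3 to 10 higher and 8 to 13 lower pathway genes, and 2 to 3 higher members. The sign of PLCB3 turned without NC replicate 3 (0.01; others left out, down to -0.07) and that of ARHGEF11 without NC replicate 1 (-0.01; others, up to 0.19). GPSM1, at 0.00 on the log2 scale, was at -0.01 with library size alone, limma on log2(FPKM + 0.1) or the filter at 5 FPKM, at -0.00 with limma on log2(FPKM + 1), and from -0.04 to 0.07 with each library left out, below 0 without siPOLR1F replicate 1 or 2 or NC replicate 1 or 2. The cause of these shifts was not tested. The log2 ratios between paralogs kept their sign in CPM and without each library.

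Between libraries with the same number, deviations from the group mean correlated at 0.30 (number 1), 0.04 (number 2) and 0.29 (number 3). Each correlated best with its own number, though number 2 only weakly. Between numbers 1 and 3 the correlations were -0.29 and -0.27. Deviations cancel within a group, so these negative values are not independent of the positive ones. The labels state no block, so the main fit has none, and its p-values take no account of any link by number. With the replicate number as a block 1517 genes were higher and 1125 lower, 3 members were higher, and MYL12A and MYL12B did not pass (edgeR adjusted p = 0.0682 and 0.0571), and 6 of the other RhoGEF genes were higher and 2 lower. Each member had at least 3025 counts in each library.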
